A study of Sus scrofa with 6 samples.

Results

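The genes described here are the lipoprotein lipase LPL, the related lipases LIPC, LIPG, LIPA, PNPLA2 and LIPE, the angiopoietin-like inhibitor ANGPTL4, and the partners of LPL named GPIHBP1 and LMF1. They were taken by gene symbol from the annotation of the pig array. Of the 9 genes 7 were matched, each to a single transcript cluster (a set of probes read as 1 gene), out of 25385 clusters tested and 10245 genes named. GPIHBP1 and LMF1 were matched to no cluster and are not analysed here. LPL was selected on its own signal, which was lower in treated than in untreated livers of this series, so its difference is given as a description and without a test. The other genes stand beside it because of what they do.

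Plasma triglycerides are broken down in the capillaries by LPL, which is held on the endothelial surface by GPIHBP1 after folding with the help of LMF1. ANGPTL4 inhibits LPL, whereas APOC2 and APOA5 promote its action. Hepatic lipase (LIPC) and endothelial lipase (LIPG) belong to the same enzyme family and act on lipoprotein remnants and HDL. Inside cells PNPLA2 (adipose triglyceride lipase) and LIPE (hormone-sensitive lipase) empty lipid droplets, and LIPA cleaves lipids in the lysosome. Adult liver is known to make much LIPC and little LPL.

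Gene expression was measured in liver tissue that pigs kept after extended partial hepatectomy, in which most of the organ is cut away. In the MSC group 3 animals had received mesenchymal stromal cells, and in the control group 3 animals had received the vehicle. By the methods the pigs were adult male German landrace pigs, the vehicle was Ringer solution, and the cells were porcine bone marrow cells turned towards hepatocytes in culture and given into a central vein. By the names in the deposited workbook the tissue was taken at 24 h. All 6 livers had been resected, and sham-operated livers were not analysed here. Each array, named MSC 1 to 3 and control 1 to 3 below, stands for 1 animal by the methods.

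The deposited signals are on the log2 scale, with an array median from 6.51 to 6.59. A background level of 8.18 was set at the 95th percentile of 23 antigenomic probe sets, which match no pig sequence, and 5627 clusters (22.2%) had a mean above it. It is a strict level, since the median of those probe sets was 3.95. All 11 measured hepatocyte markers had a mean above it, with a list mean between 12.29 and 12.64 on the MSC arrays and between 12.17 and 12.75 on the control arrays. Control 1 received the lowest weight when the arrays were weighted by their fit, 0.447, against weights between 0.809 and 1.56 for the other arrays.

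LPL was 3.52-fold lower in MSC than in control livers by its group means, 6.37 ± 0.63 against 8.19 ± 0.95 (mean log2 signal ± SD over 3 arrays each), a difference of -1.82. Its signal was 6.82, 6.63 and 5.66 on MSC 1 to 3, against 7.12, 8.96 and 8.48 on control 1 to 3. The groups did not overlap, as in 5.96% of all clusters with every MSC array lower, but control 1 lay only 0.30 above MSC 1, and the MSC array with the lowest value and the control arrays 2 and 3 carried most of the distance. LPL passed the background level on 2 of the 6 arrays, control 2 and control 3. The MSC mean lay below the level and the control mean just above it, so the size of the difference is uncertain. With 1 array left out the difference ran between -2.35 (without control 1) and -1.43 (without control 2).

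Among all 10245 named genes the LPL difference was the second lowest by rank (rank 2). LPL was also among the genes that varied most between animals of the same group. Its pooled SD within groups was 0.81, against a median of 0.18 over the named genes, and 0.625% of them had a larger one. The cluster of LPL lies on chromosome 14 and holds 27 probes, and the annotation does not mark it as prone to cross-hybridization.

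**Figure D1:**
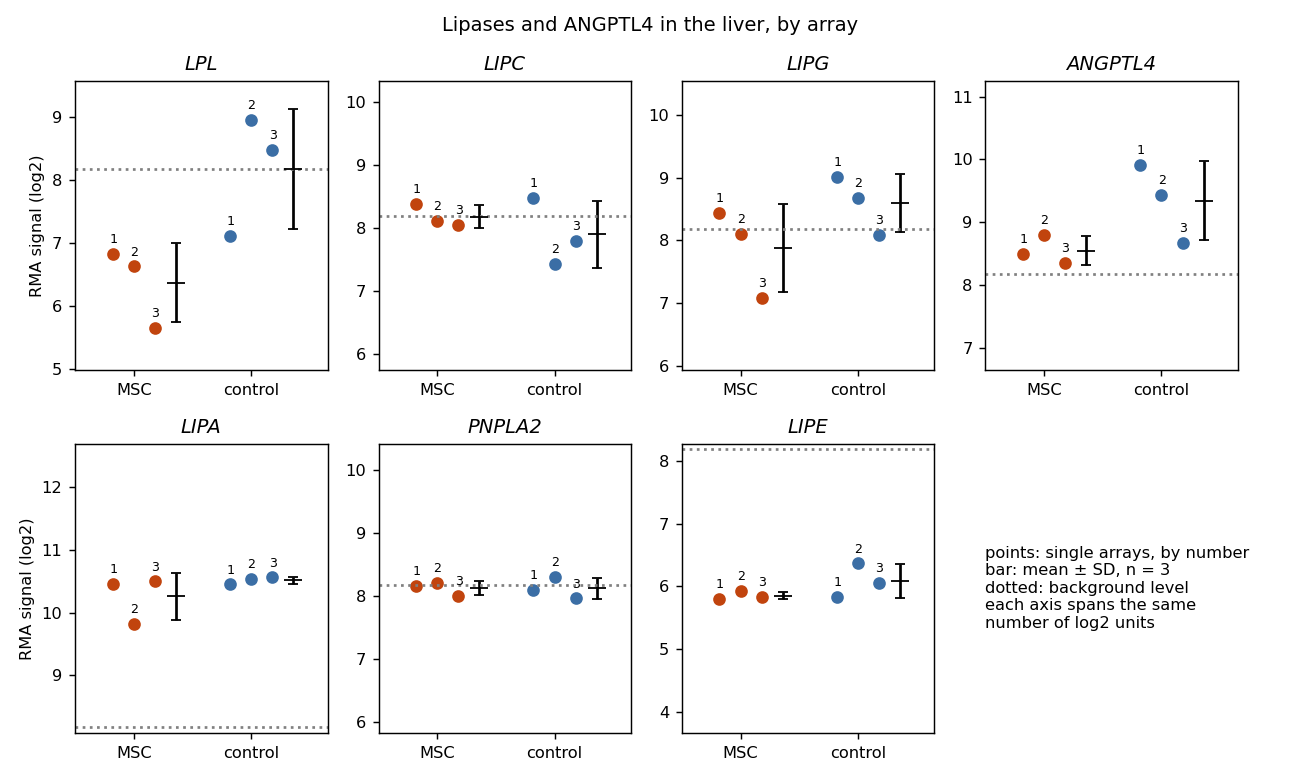
Log2 RMA signal of the 7 measured genes on each array, with MSC left of control. Points are arrays with their number, bars give the mean ± SD of 3 arrays and the dotted line is the background level of 8.18. LPL lies between 5.66 and 6.82 on the MSC arrays and between 7.12 and 8.96 on the control arrays, whereas the groups of the other 6 genes overlap.

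The comparison of MSC with control asks how the expression of these genes differed after the cell treatment. In this text a gene rose or fell when its limma p was under 0.05, unadjusted, and its log2 difference was 0.5 or more in size, a threshold taken from the methods. Of the 6 genes tested beside LPL, ANGPTL4 fell and 5 did not pass. Over all clusters 2.73% passed that threshold, 1.49% lower and 1.24% higher in MSC. In 11.6% of the clusters the groups did not overlap, and this was the case for 0 of these 6 genes. After Benjamini-Hochberg adjustment over all clusters limma called 0 of them (lowest adjusted p = 0.176), so each call below is unadjusted. Without adjustment 1662 clusters had a p under 0.05. Each limma p-value rests in part on the spread among 3 animals per group with 1 array each. The rest comes from the spread over all clusters, with 3.80 prior beside 4 residual degrees of freedom. The calls depend on this sharing. ANGPTL4 and the 5 genes called on the related lists below missed the p limit of the methods' t-test, which uses the spread of the single gene alone.

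ANGPTL4 was 1.73-fold lower in MSC livers. This secreted inhibitor of LPL is a known target of the fatty acid receptors of the PPAR family. Its signal was 8.50, 8.81 and 8.35 on MSC 1 to 3, against 9.91, 9.44 and 8.68 on control 1 to 3. All 6 values lay above the background level. MSC 2 and control 3 overlapped, and control 1 stood highest. The means were 8.55 ± 0.23 in MSC and 9.34 ± 0.62 in control (SD, n = 3 arrays per group), a difference of -0.79 with a 95% interval of -1.48 to -0.11 (limma, adjusted p = 0.736). The call was lost with array weights (-0.61) and on leaving out control 1 (-0.51), control 2 (-0.74), MSC 1 (-0.77) or MSC 3 (-0.69). The Ensembl transcript of the cluster is placed on chromosome 2, from 71271944 to 71279720 of Sscrofa10.2.

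LIPG, the endothelial lipase that acts on the phospholipids of HDL, had a lower mean in MSC livers and did not pass the threshold. Its signal was 8.44, 8.11 and 7.09 on MSC 1 to 3, against 9.005, 8.68 and 8.09 on control 1 to 3. MSC 3 was lowest, and MSC 1 and MSC 2 lay within the control range. LIPG passed the background level on 3 of the 6 arrays, and its MSC mean of 7.88 lay below that level. The difference was -0.71 with a 95% interval of -1.56 to 0.13. It passed without MSC 1 (-0.99) or control 3 (-0.96) and was -0.32 without MSC 3. The transcript of this cluster lies on chromosome 1, from 108638412 to 108667299 of Sscrofa10.2.

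LIPC, the hepatic lipase that hepatocytes secrete into the sinusoids, had means of 8.18 ± 0.18 in MSC and 7.90 ± 0.53 in control (SD, n = 3 arrays per group). The MSC arrays read 8.38, 8.11 and 8.04, against 8.48, 7.42 and 7.79 on the control arrays. Control 1 had the highest value of all, and the other control arrays had the lowest. Both means lay at or below the background level, which LIPC passed on 2 of the 6 arrays. The difference of 0.28 had a 95% interval of -0.31 to 0.87. Without control 1 it was 0.57 and passed, and without control 2 it was 0.05. The cluster of LIPC also lies on chromosome 1.

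Of the 3 intracellular lipases 0 passed. LIPA, the lysosomal acid lipase, read 10.46, 9.82 and 10.49 on the MSC arrays, against 10.45, 10.53 and 10.56 on the control arrays. Only MSC 2 stood apart, and the difference of -0.25 (95% interval -0.69 to 0.19) was -0.04 without it. PNPLA2, which takes the first fatty acid off a stored triglyceride, read 8.16, 8.22 and 8.004 on the MSC arrays, against 8.10, 8.30 and 7.97 on the control arrays. Its difference was 0.002 with a 95% interval of -0.31 to 0.31, which leaves room for a change of either sign within those bounds. Both PNPLA2 means lay just below the background level, which PNPLA2 passed on 2 of the 6 arrays. LIPE, which continues with the diglyceride, stayed below the background level on all 6 arrays, with 5.81, 5.92 and 5.84 in MSC against 5.83, 6.37 and 6.05 in control. Its difference was -0.23 (95% interval -0.59 to 0.13), and -0.09 without control 2. On Sscrofa10.2 the transcripts of these clusters are placed on chromosome 14 from 110114083 to 110152331 (LIPA), on chromosome 2 from 156291 to 161297 (PNPLA2) and on chromosome 6 from 45444859 to 45454620 (LIPE).

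**Figure D2:**
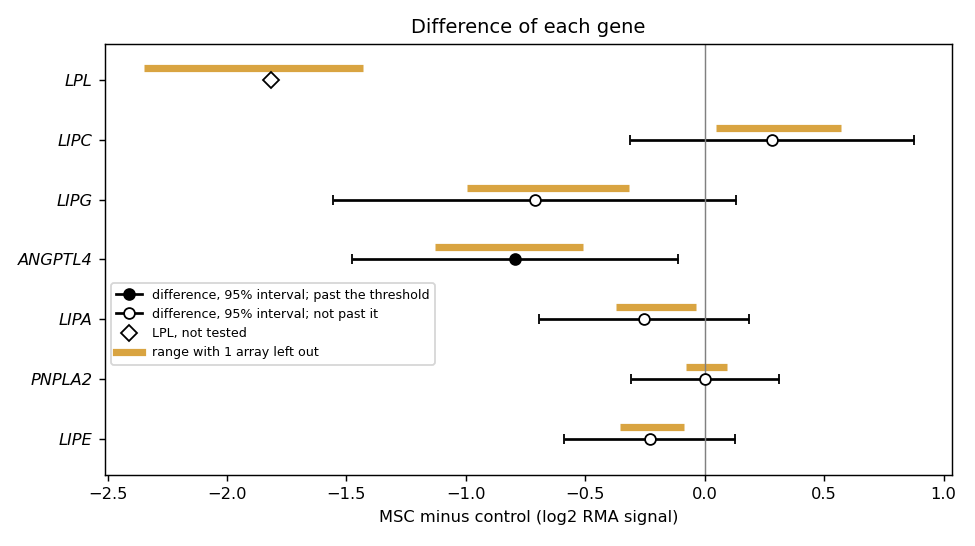
Difference of MSC minus control in log2 signal for the 7 genes. Circles with bars are limma differences with their 95% interval, filled for ANGPTL4, which passed the threshold, and open for the 5 that did not. The diamond is LPL, which was not tested, and the thick bars give the range with 1 array left out, -2.35 to -1.43 for LPL and -1.13 to -0.51 for ANGPTL4.

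The cofactors and other partners of lipolysis in the circulation were next compared. Of 23 genes on that list 19 were measured, 0 rose and 0 fell, and the median difference was 0.16, against 0.00 over all named genes. APOC2, the activator of LPL, read 9.82, 9.52 and 9.35 on the MSC arrays, against 9.98, 8.76 and 8.07 on the control arrays. Its difference was 0.63 (95% interval -0.36 to 1.61). It passed without control 1 (1.15) and was 0.19 without control 3. APOC3, which inhibits lipolysis, differed by 0.04 (95% interval -0.30 to 0.37) and APOA5, which promotes it, by 0.59 (95% interval -0.52 to 1.69), or by 0.08 without MSC 3. APOC2, APOC3 and APOA5 were singled out by their role after their values had been seen. Among the first of the list by p were the remnant receptor LSR (0.41), the proteoglycan SDC1 (0.31) and the protease FURIN (0.29). LSR passed without MSC 2 (0.52) or control 1 (0.58).

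Of the 6 measured relatives of ANGPTL4 5 had a negative difference and 0 passed, with a median difference of -0.06. Those 5, ANGPTL2 among them, had means below the background level in both groups, so the count of signs says little. ANGPTL2 differed by -0.54 (95% interval -1.27 to 0.19) and passed without MSC 2 (-0.85) or control 1 (-0.82). ANGPTL1 (-0.10) and ANGPTL5 (-0.11) read between 2.998 and 4.17 on all arrays.

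Other lipases of the neutral, acid and patatin-like families gave 0 calls among 16 measured of 28 listed, with differences between -0.26 and 0.37 and a median of -0.10. Only 3 of the 16 had a mean above the background level. The liver carboxylesterase CES1 differed by 0.37 (95% interval -0.10 to 0.83) and passed without control 1 (0.60) and was 0.21 without control 3. The next by p were DAGLA (-0.24), LIPK (-0.26) and PLA1A (0.23), with means below the level in both groups.

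On the list of lipid droplet and intracellular lipolysis genes 13 of 20 were measured and 0 passed, with a median difference of 0.01. ABHD5, the coactivator of PNPLA2, differed by -0.06 (95% interval -0.61 to 0.50) and G0S2, its inhibitor, by -0.17 (95% interval -0.60 to 0.26), both singled out by their role after their values had been seen. The droplet coat gene PLIN2 read 11.91, 11.47 and 11.001 on the MSC arrays, against 12.60, 11.99 and 11.56 on the control arrays. Its difference of -0.59 (95% interval -1.30 to 0.12) passed without MSC 1 (-0.82) or control 3 (-0.84) and was -0.32 without control 1 and -0.36 without MSC 3. FITM2 (0.33), the triglyceride synthesis gene DGAT2 (0.48) and PLIN4 (0.48) were the others by p, with means below the background level in both groups. DGAT2 passed without MSC 2 (0.69) and was 0.15 without MSC 3. PLIN4 passed without control 1 (0.79) and was 0.15 without control 2.

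Genes of fatty acid uptake and binding held 4 of the 5 genes called on the 6 related lists. Of 18 genes 15 were measured, 2 rose and 2 fell. FABP5, a fatty acid binding protein of macrophages, endothelium and epidermis, was 2.62-fold lower, with 10.05, 9.80 and 9.15 on the MSC arrays, against 10.04, 11.88 and 11.25 on the control arrays. Control 1 lay at the level of MSC 1, and control 2 and 3 above all others. The difference was -1.39 (95% interval -2.42 to -0.36, limma, adjusted p = 0.736), and FABP5 passed without each array in turn. FABP1, the fatty acid binding protein of hepatocytes, rose by 1.02 (95% interval 0.26 to 1.77), with 10.16, 10.24 and 9.93 in MSC, against 9.77, 8.33 and 9.19 in control. The groups of FABP1 did not overlap, as in 5.64% of all clusters with every MSC array higher, and its difference was 0.63 without control 2. GOT2, a mitochondrial aminotransferase also found at the plasma membrane, rose by 0.54 (95% interval 0.12 to 0.95), a call that was lost without MSC 1 (0.52), MSC 3 (0.44) or control 2 (0.40).

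CD36, the fatty acid translocase, fell by 1.04 on the log2 scale (95% interval -1.95 to -0.13). Its signal was 7.88, 7.02 and 6.96 on the MSC arrays, against 7.93, 9.20 and 7.85 on the control arrays, so that control 2 stood above all others and was the only array above the background level. The size of the difference is therefore uncertain, as for LPL. The call was lost on leaving out control 2 (-0.61), MSC 2 (-0.91) or MSC 3 (-0.88). The study singled out CD36 through a network built on these arrays and on arrays of lung, so its value here is not independent evidence. The paper also reported CD36 mRNA in liver by RT-PCR, higher after resection than in sham animals and lower again with the cells.

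**Figure D3:**
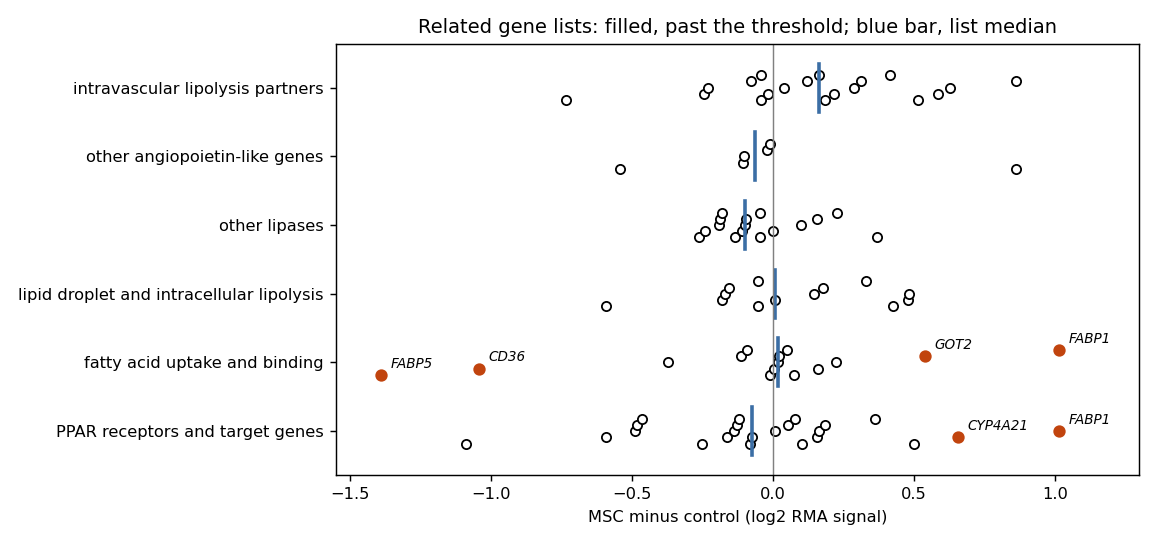
Difference of MSC minus control in log2 signal for the measured genes of 6 related lists. Each circle is a gene, filled where it passed the threshold, and the blue bar is the median of the list. FABP5 (-1.39) and CD36 (-1.04) lie left of all other genes of their list, FABP1 (1.02) and GOT2 (0.54) right of them, and the lists of partners, angiopoietin-like genes, other lipases and droplet genes hold 0 calls.

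The profile of LPL over the 6 arrays was most like those of MPP1 (Pearson r = 0.996), SLC35F3 (0.995), GRASP (0.994), FABP5 (0.992) and STX6 (0.991), out of 10244 named genes compared. The most opposed were CAMSAP3 (-0.997), CKMT2 (-0.994) and FOXA3 (-0.989). Of these genes only MPP1 and FABP5 had means above the background level, and SLC35F3 read between 3.53 and 3.99 on all arrays. The values are descriptions over 6 arrays that share the group difference LPL was picked for, and 66 genes reached an r of 0.95 or more. After the group means were taken out, r with LPL was 0.988 for FABP5 and 0.989 for MPP1. This adds little, since both genes were picked for their r over these same arrays. MPP1 read 8.44, 8.42 and 8.09 on the MSC arrays, against 8.60, 9.22 and 8.96 on the control arrays, the same order of arrays as for LPL. Over the same 6 arrays r with LPL was 0.84 for LIPE, 0.57 for LIPG, 0.43 for ANGPTL4, 0.35 for LIPA, 0.30 for PNPLA2 and -0.67 for LIPC.

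ANGPTL4 and LPL, both lower by their means in MSC, did not share the order of the control arrays. LPL was lowest on control 1, where ANGPTL4 was highest. After the group means were taken out, r between them over the 6 arrays was -0.36.

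Some markers of cells other than hepatocytes were lower in MSC livers too. Fewer cells of a type and less RNA per cell cannot be told apart in whole tissue. All 9 measured endothelial markers had a negative difference, and VWF and FLT1 fell. Of 14 stellate cell and fibroblast markers 12 had one, and COL6A3 and RGS5 fell. The mean signal of the stellate cell and fibroblast list ran from 8.96 to 9.26 on the MSC arrays and was 8.99, 9.67 and 9.63 on control 1, 2 and 3. That of the endothelial list ran from 8.37 to 8.70 on the MSC arrays and was 8.35, 9.17 and 8.98 on control 1, 2 and 3. Control 1 thus stood with the MSC arrays in both lists. Of 11 macrophage markers 8 had a positive difference, MS4A7 and TIMD4 rose and MSR1 fell. The macrophage list mean ran from 9.08 to 9.11 on the MSC arrays and was 8.52, 9.10 and 9.05 on control 1, 2 and 3. Control 1 alone was thus low, and control 2 and 3 lay close to the MSC arrays. Of 8 measured adipocyte markers 0 passed and 1 had a mean above the background level, with PLIN1 between 6.03 and 6.57 and LEP between 3.85 and 4.36 on all arrays. ADIPOQ and FABP4, which define that cell type, were matched to no cluster. Of 7 bile duct markers 6 had a negative difference, and EPCAM and CFTR fell. The bile duct list mean was 7.98, 8.10 and 7.69 on MSC 1 to 3, against 7.98, 8.69 and 8.55 on control 1 to 3. Like LPL it was lowest on MSC 3 and highest on control 2 and 3, but only 2 of its 7 markers had a mean above the background level. Many of these marker calls were made at low signal. MS4A7, TIMD4 and VWF passed the background level on 0 arrays, and both means of EPCAM lay below it. FLT1, RGS5 and CFTR had the MSC mean below the level and the control mean above it. COL6A3 and MSR1 had both means above it. The part of these cell types in the LPL difference was not tested.

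**Figure D4:**
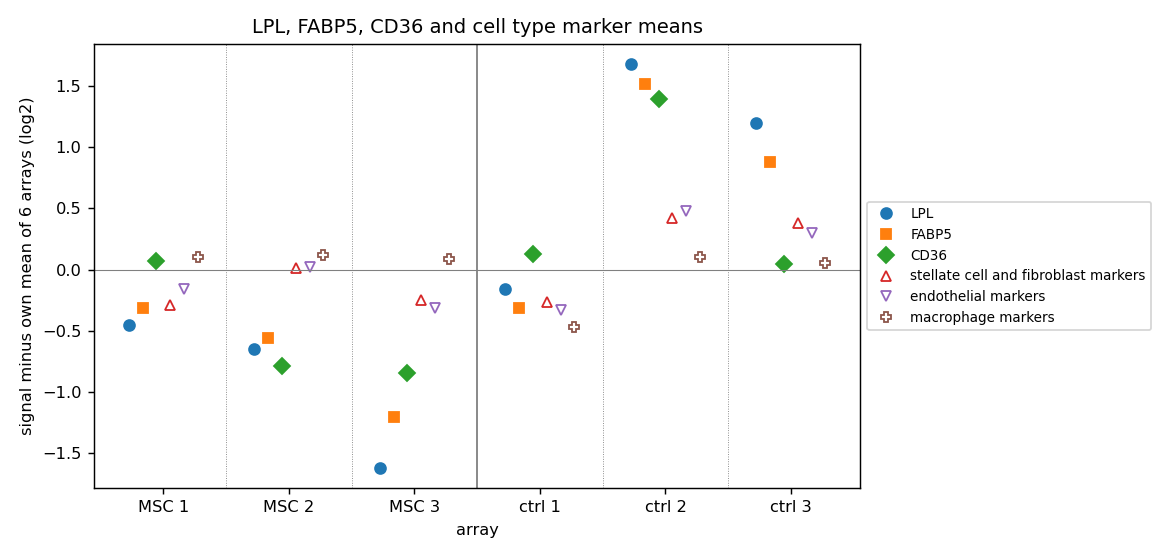
Log2 signal of LPL, FABP5 and CD36 and mean log2 signal of 3 cell type marker lists on each array, each minus its own mean of the 6 arrays, with MSC left of control. LPL and FABP5 are high on control 2 and 3 alone and lowest on MSC 3. The stellate cell and endothelial list means are also highest on control 2 and 3, as is that of the bile duct list (not plotted).

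Genes that answer to fatty acids through the PPAR receptors, as ANGPTL4 does, were listed together with the PPAR and RXR receptors themselves. Of the 28 genes on that list 23 were measured. FABP1 and CYP4A21, a fatty acid hydroxylase gene, rose, 0 fell, and the median difference was -0.07. CYP4A21 rose by 0.66 (95% interval 0.09 to 1.22), a call lost without MSC 1 (0.63), MSC 2 (0.66), MSC 3 (0.68) or control 3 (0.35). Both of its means lay below the background level. The liver hormone gene FGF21 had a p under 0.05 by limma (adjusted p = 0.757) with a difference of -0.47, under the size required, and passed without MSC 3 (-0.60) or control 2 (-0.61). It was -0.28 without control 1. FGF21 lay below the background level on all 6 arrays, with means of 5.56 in MSC and 6.03 in control.

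Control 1 held the highest of the 6 values for 10 of the 23 genes of this list (43.5%), against 19.8% of all named genes. It did so as well for 8 of 13 droplet genes (61.5%), 6 of 16 other lipases (37.5%), 4 of 6 other angiopoietin-like genes (66.7%), 6 of 8 adipocyte markers (75.0%) and 6 of 11 hepatocyte markers (54.5%), so this was no trait of the PPAR list alone. It did so for 0 of the endothelial, macrophage and bile duct markers. FABP1 was highest on MSC 2 and CYP4A21 on MSC 1. PDK4, which turns the cell from glucose to fatty acid oxidation, read 8.34, 8.40 and 7.63 on the MSC arrays, against 10.90, 9.17 and 7.57 on the control arrays. Its difference of -1.09 (95% interval -2.75 to 0.57) was -0.25 without control 1 and passed without control 3 (-1.91). CPT1A, which admits fatty acids to the mitochondrion, differed by -0.49 (95% interval -1.14 to 0.16), passed without control 3 (-0.73) and was -0.23 without MSC 3 and -0.30 without control 1. ANGPTL4 had the same array highest, and its difference was smallest without it. The mean of the hepatocyte list was 12.75 there, against 12.20 and 12.17 on control 2 and 3. The adipocyte list had its highest mean there too, 6.73, against 5.91 and 5.96 on control 2 and 3, but its single marker above the background level was GPD1, which liver also expresses. PDK4 and CPT1A were singled out after their values had been seen. The part of the hepatocyte signal of control 1 in the ANGPTL4 difference was not tested.

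**Figure D5:**
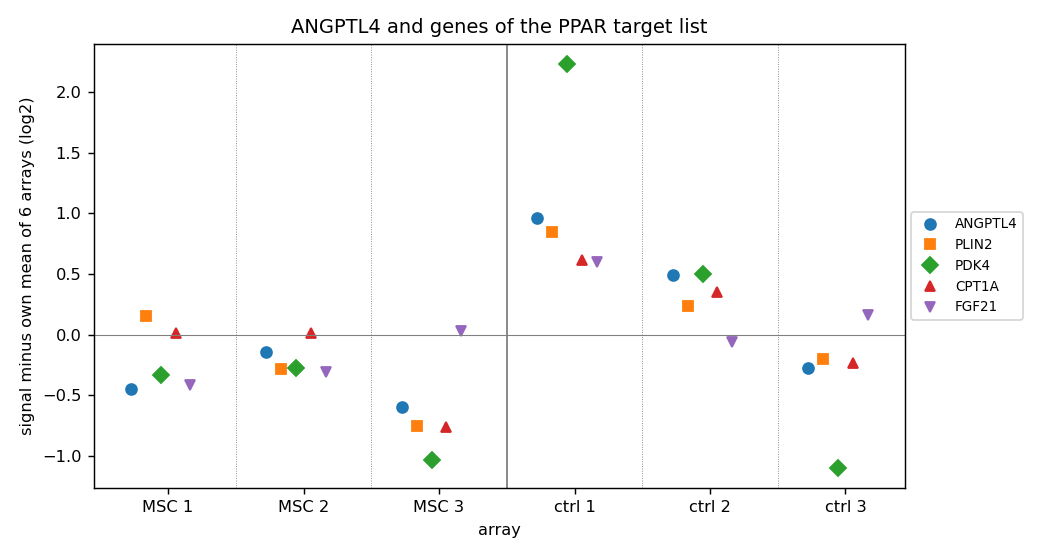
Log2 signal of ANGPTL4 and 4 genes of the list of PPAR receptors and target genes on each array, with MSC left of control. Each is given minus its own mean of the 6 arrays. The 4 genes (PLIN2, PDK4, CPT1A and FGF21) were chosen for the plot after their values had been seen. FGF21 lies below the background level on all 6 arrays. All 5 genes are highest on control 1, as 10 of the 23 on that list are, where PDK4 reads 10.90 and ANGPTL4 9.91, and control 2 and 3 lie lower for each.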

How the data were processed

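Total RNA of 6 liver samples was hybridized as biotinylated cDNA to whole-transcript arrays of the pig (Affymetrix Porcine Gene 1.0 ST). The authors summarized the probes per transcript cluster with RMA (Affymetrix Expression Console 1.4). Deposited are log2 signals, which were used without further normalization. The methods also describe RMA in R, run on each organ by itself, for a later step. A deposited workbook gave the annotation (symbols, chromosomes and other fields), and its 6 signal columns, whose names match no sample label, were not used. The build of the cluster positions is not given, so these are not printed. Transcript positions are those of the Ensembl descriptions in the annotation.

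Of 27558 probe sets 25385 main and rescue clusters were tested and 2173 control sets left out. Symbols were updated through RefSeq and Ensembl gene tables, and of several clusters for 1 gene that of highest mean signal was taken. MSC was compared with control by limma 3.58.1 in R 4.3.3 (lmFit and eBayes, 4 residual and 3.80 prior degrees of freedom), with MSC minus control as the difference. The calculation was tested on simulated data. Precision is limited by the number of arrays. The genes, lists and comparisons were chosen with earlier results of these data known. Named are the 9 genes, of each related list the called genes and up to 4 in all by limma p, and the 5 genes most and 3 least like LPL; a gene named by this rule is not reported here. Alternatives left out each array, centred or quantile normalized again, weighted arrays, filtered low signals, changed the variance model, averaged clusters, used the replicate number as a block or ran the methods' t-test (equal variances, more than 2-fold). For the related lists these alternatives were added after seeing the data. The values of neutrophil, erythroid and T and NK cell markers served as further lists: 1 of 5, 1 of 5 and 0 of 11 fell, and 0 rose. The markers that fell, S100A8 and EPB42, lay below the background level on all 6 arrays.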

Additional observations from a re-analysis of the deposited data

How the results depend on the processing

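The LPL difference of -1.82 ran between -2.35 and -1.43 with 1 array left out and was -2.14 with array weights. LPL was picked for this fall and its groups did not overlap. Leaving out or weighting arrays could therefore not turn the sign, and these values describe its size alone. The difference could not be given under the filter on low signal, which LPL did not pass. The count of 1 called gene among the 6 tested beside LPL ran from 0 (without MSC 3 or control 2) to 2 (without control 3) with 1 array left out, the 1 gene being LIPG without MSC 1 and LIPC without control 1, and was 0 with array weights, 0 by the methods' t-test and 2 under the replicate block, where LIPG passed too. The 0 of the t-test was fixed by its limit of more than 2-fold, since the largest of these differences was -0.79 (ANGPTL4). The 5 called genes of the related lists became 14 with array weights and 3 under the filter on low signal. That filter took out CD36 and CYP4A21 before testing, and FABP5, FABP1 and GOT2 kept their call. The count was 0 by the methods' t-test and ran from 3 (without MSC 3) to 20 (without control 1) with 1 array left out. GOT2 (0.54) and CYP4A21 (0.66) could not pass the fold limit of that t-test either. ANGPTL4 and the 5 called genes of the related lists also missed its p limit. The 692 clusters past the threshold became 1565 with array weights, 188 under the filter on low signal, 266 with 1 cluster per named gene (fewer clusters tested in these fits) and 32 by the methods' t-test, and ran from 445 (without control 2) to 2215 (without control 1), with 1240 without MSC 2. The block gave 834, and the replicate numbers did not pair the arrays (r of the deviations -0.02, 0.25 and -0.08 for numbers 1, 2 and 3). The sign of PNPLA2 turned with repeated quantile normalization (-0.034) and without MSC 1 (-0.014), MSC 2 (-0.043), control 1 (-0.008) or control 3 (-0.077). Without control 1 it turned for ANGPTL5 (0.066) and ABHD5 (0.19), without MSC 3 for ABHD5 (0.096), without MSC 2 (-0.032) or control 3 (-0.058) for APOC3 and with array weights for ABHD5 (0.024). With 1 array left out the range was -0.077 to 0.092 for PNPLA2, -0.29 to 0.066 for ANGPTL5, -0.058 to 0.13 for APOC3 and -0.25 to 0.19 for ABHD5. The cause was not tested. Signals of LPL, LIPE, LIPC, PNPLA2 and LIPG near or below the background level limit the size of their differences.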
